A study of Oryza sativa Japonica Group with 6 samples.

Results

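The genes described here encode the catalytic subunits of cellulose synthase in rice. They are 7 listed loci, CESA1, CESA3, CESA6 and CESA8 of primary walls and CESA4, CESA7 and CESA9 of secondary walls, out of 55800 loci in the authors' deposited table. The rule kept those with an RPKM (reads per kilobase of gene length and per M reads of the library) of 1 or more in 2 libraries or more, which 4 of the 7 met. Seedlings of the japonica rice cultivar Lijiangxintuanheigu (LTH), 2 weeks old, were held for 24 h at 11 °C, 13 °C or 25 °C, and RNA of the stems and leaves was sequenced in 2 biological replicates per temperature. All 6 libraries share the cultivar, the age and the tissue, and the warmest temperature, 25 °C, serves as the baseline. The title of the series names cold-induced leaf rolling as its subject. The sources used here give neither the number of seedlings in a library nor the hour of collection.

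Cellulose is spun out at the plasma membrane by rosette-shaped complexes, in which different CESA proteins sit side by side and each adds glucose from UDP-glucose to a growing chain. From work in Arabidopsis, separate sets of CESA proteins are known to build the thin primary wall of growing cells and the thick secondary wall of xylem and fibres. In rice, mutants of CESA4, CESA7 and CESA9 have brittle culms, and these 3 genes are placed with secondary walls. Leaves and young stems hold both wall types.

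For all 7 loci the description in the table is that of a cellulose synthase A catalytic subunit with the same number as in the list. CESA1 is LOC_Os05g08370 (chromosome 5, 4565177 to 4571461, minus strand). CESA3 is LOC_Os07g24190 (chromosome 7, 13741284 to 13747256, minus strand), CESA6 is LOC_Os07g14850 (chromosome 7, 8496189 to 8501906, plus strand) and CESA8 is LOC_Os07g10770 (chromosome 7, 5852711 to 5858718, minus strand). The secondary wall loci are CESA4, LOC_Os01g54620 (chromosome 1, 31422946 to 31428688, plus strand), CESA7, LOC_Os10g32980 (chromosome 10, 17261952 to 17266613, plus strand), and CESA9, LOC_Os09g25490 (chromosome 9, 15281268 to 15285910, plus strand). These are whole-gene spans from the table, whose genome build is not given in the sources used here. For each of the 7, a gene with the same symbol among its synonyms was found in RefSeq's gene table, on the same chromosome. The match was by symbol and not by locus name or position. Reads shared between CESA loci of similar sequence could have been split or dropped in the authors' counting, which is not described in the sources used here, so levels of close relatives are uncertain to that extent.

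Library totals recovered from the values were 17.02 M reads (replicate 1) and 18.75 M reads (replicate 2) for 11 °C, 16.96 M and 18.74 M for 13 °C, and 15.96 M and 18.35 M for 25 °C; later pairs of values also put replicate 1 first. The number of loci at an RPKM of at least 1 was 16490 to 18083 per library. The columns of replicate 1 and replicate 2 are written with different precision, and the labels do not say what the replicate number marks. Each temperature has 1 library of each number. For the listed genes, differences within each replicate number stand beside the pooled ones. The leaf marker Rubisco activase (RCA) had 1015 and 650 RPKM at 11 °C, 4147 and 4905 RPKM at 13 °C and 27020 and 36630 RPKM at 25 °C. Leaf RNA was thus plainly present at 25 °C. This marker itself was lower in the cold, at 11 against 25 °C (log2 difference -5.27, adjusted p = 4.09e-05) and at 13 against 25 °C (-2.80, adjusted p = 0.000777). The other leaf marker, the light-harvesting protein CP29.1, had 64.8 and 43.3 RPKM at 11 °C, 71.3 and 80.5 RPKM at 13 °C and 576 and 584 RPKM at 25 °C. The root marker OsLsi1, a silicon channel, had 0.814 and 0.668 RPKM at 11 °C, 11.9 and 11.0 RPKM at 13 °C and 18.1 and 12.9 RPKM at 25 °C. It was called lower at 11 °C, against 25 °C (log2 difference -3.23, adjusted p = 5.83e-05) and against 13 °C (-2.83, adjusted p = 0.000246). At 13 against 25 °C it was not called (adjusted p = 0.253). Reads on a root marker thus stood beside those on leaf markers at 25 °C. The part of leaf or root cells in the results that follow was not tested. In bulk tissue, fewer cells of a type and less RNA per cell cannot be told apart, here and in every result that follows.

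The 4 primary wall genes were lower at 11 °C than at 13 °C, and 3 of them (CESA1, CESA3 and CESA6) were higher at 13 °C than at 25 °C. Differences were tested as log2(RPKM + 1) with limma in 1 model of all 6 libraries, over 19438 loci, and called at a Benjamini-Hochberg adjusted p below 0.05. This scale understates the change of genes with low RPKM. At 11 against 13 °C, 4 of 4 were lower and 0 higher, where 18.2% of all loci tested were lower and 17.2% higher, and their median log2 difference was -1.66, beside -0.02 for all loci. At 13 against 25 °C, 3 of 4 were higher and 0 lower, where 26.3% of all loci were higher and 17% lower; the median was 1.07, beside 0.12 for all loci. At 11 against 25 °C, 1 was higher (CESA1), 2 were lower (CESA3 and CESA8) and CESA6 did not pass, where 28.6% of all loci were higher and 21.4% lower; the median was -0.59, beside 0.13 for all loci. The 2 comparisons with 25 °C share its libraries, and every library enters 2 of the 3 comparisons. None of the 4 reversed its direction under any alternative tried; the calls that changed with a setting other than a replicate term in the fit are given with each gene. CESA6 passed the expression minimum through both libraries at 13 °C and 1 at 25 °C, so its level at 13 °C took part in admitting it, and the counts and medians over the 4 are descriptions.

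**Figure D1:**
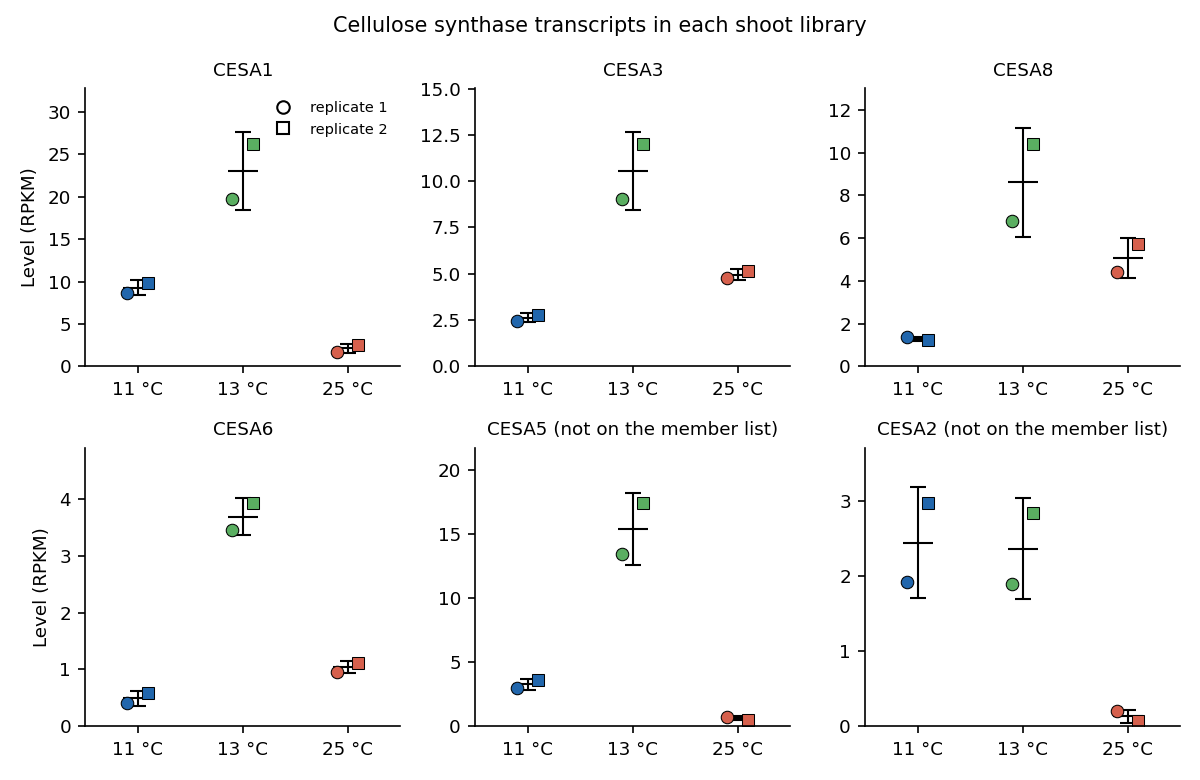
RPKM (vertical axis, from 0) of the 6 CESA genes that passed the expression minimum, at 11, 13 and 25 °C (horizontal axis); circles are replicate 1, squares replicate 2, bars the mean ± SD of 2 libraries. CESA1, CESA3, CESA6, CESA8 and CESA5 peak at 13 °C, while CESA2 is at 1.89 to 2.97 RPKM in all 4 libraries at 11 and 13 °C.

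CESA1, the most abundant of the family in the cold, rose at both low temperatures. Its RPKM was 8.65 and 9.88 at 11 °C, 19.8 and 26.2 at 13 °C, against 1.74 and 2.53 at 25 °C. The 3 groups did not overlap, and the 2 libraries at 25 °C were the lowest, with 113 and 189 reads on the gene. The mean was 9.26 ± 0.871 RPKM at 11 °C, 23.0 ± 4.57 RPKM at 13 °C and 2.14 ± 0.56 RPKM at 25 °C (SD, n = 2 each). Against 25 °C, CESA1 was 4.34-fold higher at 11 °C (log2 difference 1.72 ± 0.26, SE, adjusted p = 0.00111; 1.82 in replicate 1 and 1.62 in replicate 2). It was 10.8-fold higher at 13 °C (2.94 ± 0.26, adjusted p = 0.000117; 2.92 and 2.95). At 11 °C it was 2.48-fold lower than at 13 °C (-1.22 ± 0.26, adjusted p = 0.00917; -1.11 and -1.32). This last call was lost when replicate 1 at 11 °C was left out (adjusted p = 0.0559) or replicate 2 at 13 °C (adjusted p = 0.0765), and over all alternatives its adjusted p was 0.000417 to 0.0765.

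CESA3 was higher at 13 °C and lower at 11 °C than at 25 °C. It had 2.44 and 2.79 RPKM at 11 °C, 9.05 and 12.02 RPKM at 13 °C, and 4.76 and 5.15 RPKM at 25 °C, and the groups did not overlap. Between 11 and 13 °C, CESA3 differed 4.02-fold, lower at 11 °C (log2 difference -1.66 ± 0.25, SE, adjusted p = 0.00188; -1.55 in replicate 1 and -1.78 in replicate 2), and this call was kept in all 13 alternatives. At 13 against 25 °C it was 2.12-fold higher (0.94 ± 0.25, adjusted p = 0.0166; 0.80 and 1.08), a call that did not survive leaving out replicate 2 at 13 °C (adjusted p = 0.13), or either replicate at 25 °C (adjusted p = 0.0753 for replicate 1 and 0.053 for replicate 2). Over all alternatives this adjusted p was 0.00135 to 0.13. At 11 against 25 °C it was 1.89-fold lower (-0.72 ± 0.25, adjusted p = 0.0416; -0.74 and -0.70). That call was lost when any 1 of the 6 libraries was left out (adjusted p = 0.0612 to 0.17), with no expression minimum (adjusted p = 0.0605) and with only the 4 libraries compared (adjusted p = 0.06), within a range of 0.00343 to 0.17 over all alternatives.

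CESA6 had the lowest level of the 4 and lay just inside the expression minimum. It had 0.400 and 0.584 RPKM at 11 °C (28 and 45 reads), 3.46 and 3.92 RPKM at 13 °C (241 and 302 reads), and 0.960 and 1.11 RPKM at 25 °C (63 and 84 reads). Both libraries at 13 °C were above the other 4. It was 3.56-fold higher at 13 than at 25 °C (log2 difference 1.20 ± 0.20, SE, adjusted p = 0.00201; 1.19 in replicate 1 and 1.22 in replicate 2). At 11 °C it was 7.5-fold lower than at 13 °C (-1.65 ± 0.20, adjusted p = 0.000749; -1.67 and -1.64). Both calls were kept in all 13 alternatives, among them the fit with no expression minimum. At 11 against 25 °C the difference of -0.45 ± 0.20 did not pass (adjusted p = 0.0944; -0.49 and -0.42). At these depths the 95% Poisson intervals, which cover counting error only, were 0.266 to 0.579 and 0.426 to 0.781 RPKM at 11 °C, and 0.738 to 1.23 and 0.889 to 1.38 RPKM at 25 °C, so replicate 2 at 11 °C and replicate 1 at 25 °C overlapped within counting error. With quantile normalization the difference became -0.68 (adjusted p = 0.00822) and with median-ratio scaling -0.52 (adjusted p = 0.0213), both past the threshold; it stayed uncalled in 10 of 13 alternatives, with adjusted p of 0.00822 to 0.332.

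CESA8 was lower at 11 °C than at both other temperatures. Its RPKM was 1.36 and 1.23 at 11 °C, 6.81 and 10.4 at 13 °C, against 4.40 and 5.71 at 25 °C. The libraries at 11 °C, with 93 reads in each, were below all others, and the groups did not overlap. At 11 °C it was 3.91-fold lower than at 25 °C (log2 difference -1.39 ± 0.28, SE, adjusted p = 0.00391; -1.20 in replicate 1 and -1.59 in replicate 2) and 6.65-fold lower than at 13 °C (-2.04 ± 0.28, adjusted p = 0.00122; -1.73 and -2.35). These 2 calls were kept in all 13 alternatives. At 13 against 25 °C the means differed 1.7-fold, and the log2 difference of 0.65 ± 0.28 did not pass (adjusted p = 0.0927; 0.53 and 0.77), and it stayed uncalled in 12 of 13 alternatives, with adjusted p of 0.0193 to 0.447.

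**Figure D2:**
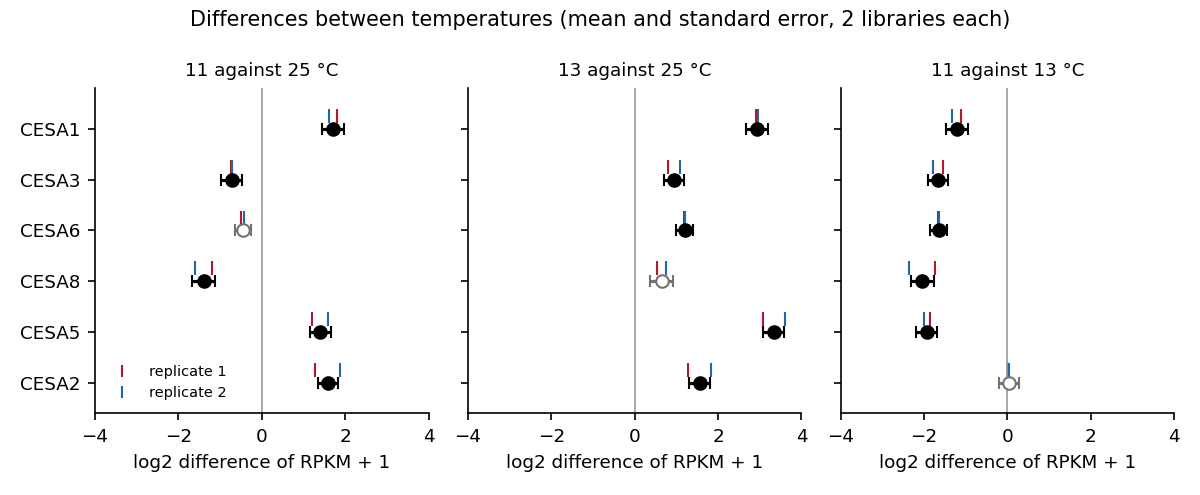
Log2 difference of RPKM + 1 (axis in log2 units) with its SE for each tested CESA gene in the 3 comparisons; filled points passed the adjusted p of 0.05, open points did not, and ticks above each point are the differences within replicate 1 (red) and replicate 2 (blue). CESA1 is above 0 at both low temperatures against 25 °C, while CESA3 and CESA8 are below 0 at 11 °C and above 0 at 13 °C.

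As RPKM is per length, the levels of the genes can be set side by side within a library, and the make-up of the primary wall set differed between temperatures. The summed RPKM of CESA1, CESA3, CESA6 and CESA8 was 12.8 and 14.5 at 11 °C, 39.1 and 52.6 at 13 °C, against 11.9 and 14.5 at 25 °C. The sums at 11 and 25 °C overlapped, and those at 13 °C were above all others. CESA1 was 67.3% and 68.2% of the sum at 11 °C, 50.6% and 49.9% at 13 °C, against 14.7% and 17.4% at 25 °C. CESA8 was 10.6% and 8.5% of it at 11 °C, 17.4% and 19.8% at 13 °C, against 37.1% and 39.4% at 25 °C. CESA3 was 19.0% and 19.3% at 11 °C, 23.1% and 22.9% at 13 °C, against 40.1% and 35.5% at 25 °C. CESA1 was thus the larger part at 11 °C, and CESA3 and CESA8 together at 25 °C, where their levels overlapped.

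The share of CESA6 was 3.12% and 4.03% at 11 °C, 8.85% and 7.46% at 13 °C, against 8.09% and 7.68% at 25 °C, which separated 11 °C from the other temperatures but not 13 from 25 °C. The ratio of CESA1 to CESA3 within a library was 3.54 and 3.54 at 11 °C, 2.18 and 2.18 at 13 °C, against 0.366 and 0.491 at 25 °C. CESA3 to CESA8 was 1.8 and 2.27 at 11 °C, 1.33 and 1.15 at 13 °C, against 1.08 and 0.902 at 25 °C, so this pair moved less than CESA1 did against either of them. The order of the levels was CESA1, CESA3, CESA8, CESA6 at 11 °C, with no overlap of neighbours. At 13 °C it was CESA1, then CESA3 and CESA8, which overlapped, then CESA6. At 25 °C CESA3 and CESA8 came first, then CESA1, then CESA6. Shares and ratios are descriptions of single libraries and were not tested.

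**Figure D3:**
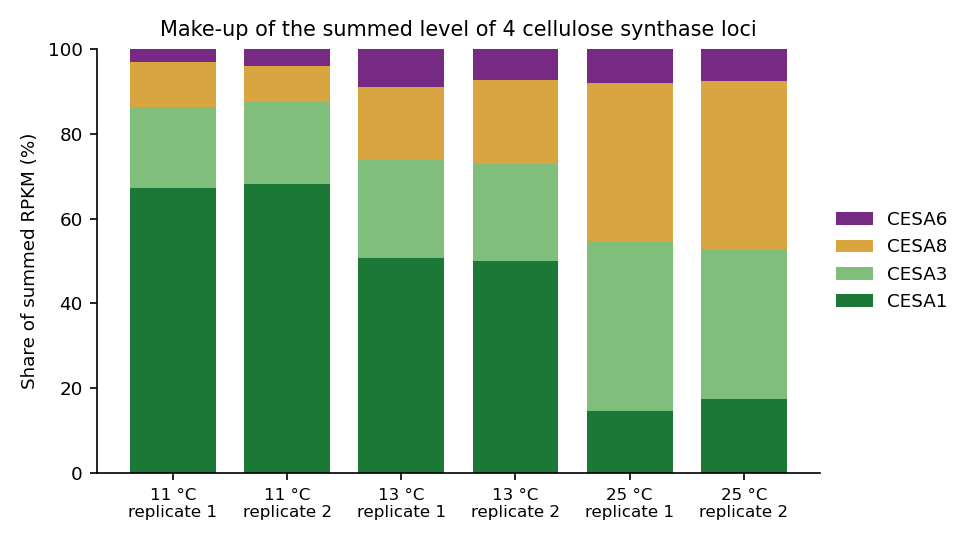
Share (percent, vertical axis) of CESA1, CESA3, CESA6 and CESA8 in their summed RPKM, in each of the 6 libraries, ordered 11, 13 and 25 °C. CESA1 makes up 67.3% and 68.2% at 11 °C and 14.7% and 17.4% at 25 °C.

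The secondary wall genes were low in all libraries, and none of the 3 reached an RPKM of 1. CESA7 and CESA9 were near the limit of detection throughout, and CESA4 was so at 25 °C. CESA4 lay outside the minimum, with a highest value of 0.291 RPKM. It had 10 and 18 reads at 11 °C (0.169 and 0.276 RPKM), 14 and 19 reads at 13 °C (0.237 and 0.291 RPKM), and 0 and 2 reads at 25 °C (0 and 0.0313 RPKM). All 4 libraries in the cold were above both at 25 °C. The ratio of summed reads per M, cold over 25 °C, was 13.4 at 11 °C (95% interval 3.39 to 116) and 15.9 at 13 °C (4.06 to 136), where the intervals cover counting error only. At 11 against 13 °C it was 0.847 (0.493 to 1.44). In the limma fit with no expression minimum, CESA4 had a log2 difference of 0.27 at 11 against 25 °C (adjusted p = 0.0296) and of 0.32 at 13 against 25 °C (adjusted p = 0.0204).

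CESA7 had 4 and 4 reads at 11 °C, 2 and 4 at 13 °C, and 0 in both libraries at 25 °C, where a count of 0 allows, as a one-sided limit, up to 3 reads, an RPKM of 0.0526 and 0.0457. Its values in the cold, 0.033 to 0.0657 RPKM, were around those limits. Every library in the cold had reads on it, 8 summed at 11 °C and 6 at 13 °C, and neither at 25 °C had any. In the limma fit with no expression minimum it was not called (adjusted p = 0.0945 at 11 and 0.208 at 13 against 25 °C). Its summed reads were not tested. CESA9 had 2 reads and 0 reads at 11 °C, 2 reads and 7 reads at 13 °C, and 3 reads and 0 reads at 25 °C, with overlapping groups (adjusted p = 0.891 and 0.477 in the same fit). The 3 together made up 2.03% and 2.26% of the RPKM of all 7 genes at 11 °C, 0.767% and 0.852% at 13 °C, against 0.426% and 0.215% at 25 °C.

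**Figure D4:**
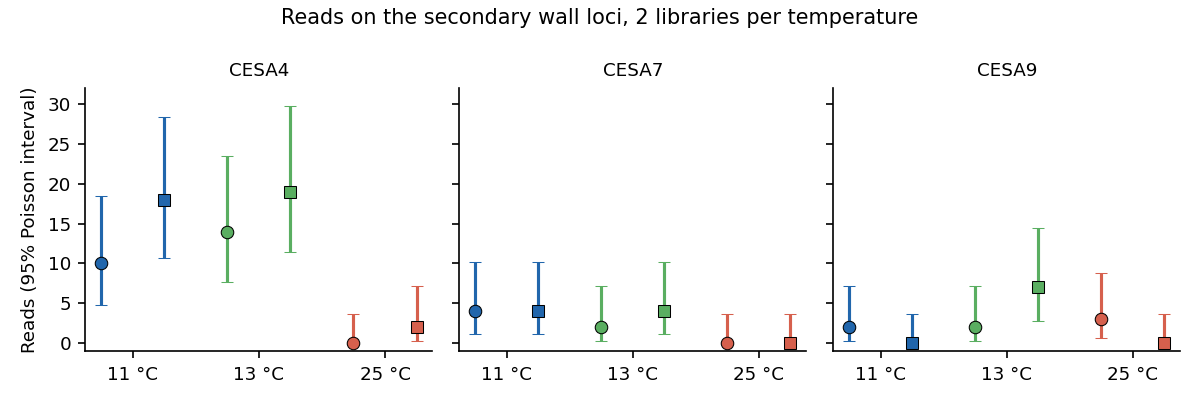
Reads (vertical axis) on CESA4, CESA7 and CESA9 in each library at 11, 13 and 25 °C, with 95% Poisson intervals for counting error. CESA4 has 10 to 19 reads in the 4 libraries at 11 and 13 °C and 0 and 2 reads at 25 °C.

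Markers of cells with secondary walls were mostly low as well. Of 19 loci chosen by description (laccases, xylem cysteine proteinases, fasciclin-like arabinogalactan protein 11 and IRX15-LIKE proteins), 6 passed the minimum, and none of the 19 was at 0 in all libraries. Their summed RPKM was 35.8 and 43.3 at 11 °C, 48.6 and 55.9 at 13 °C, against 34.2 and 19.0 at 25 °C. Most of this sum was on the IRX15-LIKE loci in every library, so it is not a level of the 19 loci alike. At 11 against 25 °C, 2 of the 6 were higher, 2 lower and 2 not called, beside 28.6% higher and 21.4% lower of all loci; at 13 against 25 °C, 1 was higher, 1 lower and 4 not called, beside 26.3% and 17%. The 2 lower became 1 without either library at 11 °C or replicate 1 at 25 °C. IRX15-LIKE genes are relatives of Arabidopsis xylan synthesis genes, and the one at LOC_Os04g55640 had 20.7 and 24.8 RPKM at 11 °C, 28.9 and 32.3 RPKM at 13 °C, and 1.90 and 2.11 RPKM at 25 °C (adjusted p = 4.76e-05 at 11 °C and 3.48e-05 at 13 °C). Another, LOC_Os06g47310, had 4.70 and 5.202 RPKM at 11 °C, 13.9 and 15.5 RPKM at 13 °C, and 20.4 and 8.82 RPKM at 25 °C. It was called lower at 11 °C against 25 °C (adjusted p = 0.0184, lost without either library at 11 °C or replicate 1 at 25 °C) and against 13 °C (adjusted p = 0.0186, lost without any of the 4 libraries compared). The first was thus the larger in the cold and the second at 25 °C. With no expression minimum the second lost both calls (adjusted p = 0.0569 against 25 °C and 0.0606 against 13 °C). In that fit the 2 markers lower at 11 against 25 °C became 1. Laccase-7 was lower at both low temperatures (adjusted p = 0.000536 at 11 °C and 0.00309 at 13 °C), with 0.0859 and 0.0780 RPKM at 11 °C, 0.316 and 0.650 RPKM at 13 °C, and 1.86 and 2.74 RPKM at 25 °C, through which alone it was admitted. The fasciclin-like locus LOC_Os01g06580 was higher at 11 °C, against 25 °C (adjusted p = 0.000301) and against 13 °C (adjusted p = 0.00117), and was admitted through 11 °C only. The IRX15-LIKE locus LOC_Os02g06380 and laccase-22 were not called in any comparison. At 11 against 13 °C, 1 of the 6 was higher, 1 lower and 4 not called, beside 17.2% and 18.2% of all loci. The part of cells with secondary walls in the CESA4 reads was not tested.

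Markers of dividing cells did not move as 1 block. The summed RPKM of the 5 measured loci was 15.3 and 19.0 at 11 °C, 19.5 and 20.0 at 13 °C, against 18.7 and 14.5 at 25 °C, with none of them at 0 throughout. Of the 3 that passed the minimum, CDKB1;1 had 4.84 and 6.70 RPKM at 11 °C, 14.3 and 14.3 RPKM at 13 °C, and 14.1 and 8.50 RPKM at 25 °C. The replication clamp PCNA had 1.88 and 2.13 RPKM at 11 °C, 4.67 and 4.01 RPKM at 13 °C, and 4.26 and 5.18 RPKM at 25 °C. Both were called lower at 11 °C, against 13 °C (adjusted p = 0.0156 and 0.028) and against 25 °C (adjusted p = 0.0436 and 0.0125). CDKB1;1 lost its call against 25 °C without any of the libraries but replicate 2 at 25 °C, and its call against 13 °C without replicate 1 at 11 °C or either library at 13 °C. PCNA lost its call against 25 °C without either library at 11 °C or replicate 2 at 25 °C, and its call against 13 °C without any of the 4 libraries compared. With no expression minimum, CDKB1;1 lost its call against 25 °C (adjusted p = 0.0822) and PCNA its call against 13 °C (adjusted p = 0.0583). The fit of only the 4 libraries compared also took the call of CDKB1;1 against 25 °C (adjusted p = 0.0672). CDKB2;1 was higher at 11 °C (adjusted p = 0.000175 against 25 °C and 0.000886 against 13 °C), with 8.24 and 9.85 RPKM at 11 °C, 0.489 and 1.57 RPKM at 13 °C, and 0.283 and 0.493 RPKM at 25 °C. Without its libraries at 11 °C, where it is high, CDKB2;1 would not have passed the minimum. Both of its calls were kept with no expression minimum. At 13 against 25 °C none of the 3 was called, beside 26.3% higher and 17% lower of all loci. The shares of all loci were 28.6% higher and 21.4% lower at 11 against 25 °C. At 11 against 13 °C they were 17.2% and 18.2%. The part of dividing cells in the levels of CESA3, CESA6 and CESA8 was not tested.

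Other CESA genes, which the list does not hold, were also expressed. CESA5 (LOC_Os03g62090, chromosome 3, 35177572 to 35183423) had 2.96 and 3.57 RPKM at 11 °C, 13.4 and 17.4 RPKM at 13 °C, and 0.718 and 0.512 RPKM at 25 °C. It was 5.31-fold higher at 11 °C (log2 difference 1.40 ± 0.25, SE, adjusted p = 0.00243) and 25.0-fold higher at 13 °C (3.33 ± 0.25, adjusted p = 5.61e-05) than at 25 °C. With 3.26 and 15.4 RPKM on average at 11 and 13 °C, it stood second to CESA1 in both. CESA2 (LOC_Os03g59340, chromosome 3, 33780013 to 33786467) had 1.92 and 2.97 RPKM at 11 °C, 1.89 and 2.84 RPKM at 13 °C, and 0.195 and 0.0728 RPKM at 25 °C (14 and 6 reads). It was higher at both low temperatures (1.59 ± 0.24, adjusted p = 0.00116, and 1.56 ± 0.24, adjusted p = 0.00151), and its libraries at 11 and 13 °C overlapped (0.03 ± 0.24, adjusted p = 0.934). Both CESA2 and CESA5 were admitted by the expression minimum through the cold libraries only. At 11 °C the levels of CESA2 overlapped those of CESA5 and CESA3.

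CESA11 (LOC_Os06g39970) had 1 to 21 reads a library and was not tested. LOC_Os12g29300, taken as CESA10, is described in the table as a probable mixed-linked glucan synthase and had at most 0.435 RPKM. Over the 6 CESA genes that passed the minimum, the summed RPKM was 17.7 and 21.0 at 11 °C, 54.4 and 72.8 at 13 °C, against 12.8 and 15.1 at 25 °C. With CESA2 and CESA5 counted, both libraries at 11 °C were above both at 25 °C, unlike in the sum of the 4 listed genes. CESA5 made up 16.7% and 17.0% of this wider sum at 11 °C, 24.6% and 23.9% at 13 °C, against 5.62% and 3.39% at 25 °C. For CESA1 the share was 48.8% and 47.0% at 11 °C, 36.4% and 36.0% at 13 °C, against 13.6% and 16.8% at 25 °C. At 11 °C CESA1 thus stayed the largest single part, without holding most of the wider sum.

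Likeness of profiles was measured as the root mean square difference of log2(RPKM + 1) over the 6 libraries, each gene centred on its own mean, so that 0 is the same profile. Within the family CESA3 was nearest to CESA6 (0.142) and then to CESA8 (0.293), while CESA1 was nearest to CESA5 (0.335) and lay 0.943 to 1.32 from CESA3, CESA6 and CESA8. Among the tested loci that have a description, the nearest to CESA1 was a CSC1-like protein, LOC_Os10g42820 (0.1). The nearest to CESA3 was a CBL-interacting protein kinase 1, LOC_Os01g18800 (0.095). The nearest to CESA6 was a 4-hydroxy-4-methyl-2-oxoglutarate aldolase, LOC_Os02g52450 (0.069), and to CESA8 the cation transporter HKT4, LOC_Os04g51820 (0.068). Such likeness was not rare: of all 19438 tested loci, described or not, 114 lay within 0.3 of CESA1, 441 of CESA3, 485 of CESA6 and 161 of CESA8. Because 1 is added before the log, genes with low RPKM vary little on this scale.

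Proteins that work beside cellulose synthase, taken as lists by description or locus, are set beside the shares of all tested loci: 28.6% were higher and 21.4% lower at 11 against 25 °C, 26.3% and 17% at 13 against 25 °C, and 17.2% and 18.2% at 11 against 13 °C. Several loci were admitted by the expression minimum through 1 temperature only, or through the cold libraries only. This is said where one is named, and the counts and medians over tested loci are descriptions. COBRA-like proteins are cell-surface proteins, several of which are needed for ordered cellulose; of 9 loci, 5 were tested. Of these 4 were higher and 0 lower at 13 against 25 °C, 3 higher and 0 lower at 11 against 25 °C, and 1 higher and 2 lower at 11 against 13 °C, with medians of 1.09, 0.72 and -0.09. Among the higher ones, LOC_Os03g54750 and LOC_Os07g49080 were admitted through the cold libraries only, and both were called higher at 11 and at 13 °C. The 4 at 13 °C became 2 without replicate 2 at 13 °C or replicate 1 at 25 °C. One of the 3 at 11 °C, LOC_Os03g54750, lost its call with quantile normalization (adjusted p = 0.0794) and with no expression minimum (adjusted p = 0.0614). It also lost this call without either library at 11 °C or replicate 2 at 25 °C. The COBRA-like protein 3 gene LOC_Os05g32110 had 2.74 and 2.53 RPKM at 11 °C, 15.2 and 17.0 RPKM at 13 °C, and 1.48 and 1.99 RPKM at 25 °C. It was higher at 13 °C (log2 difference 2.65, adjusted p = 0.000124) and did not pass at 11 °C (0.41, adjusted p = 0.184) against 25 °C. COBRA-like protein 7 (LOC_Os04g45700) was instead high at 11 °C alone, with 5.36 and 9.10 RPKM there, 0.211 and 0.143 RPKM at 13 °C, and 0 and 0.0974 RPKM at 25 °C (11 against 25 °C: 2.94, adjusted p = 7.64e-05; 11 against 13 °C: 2.77, adjusted p = 0.000246). It was admitted through its libraries at 11 °C only, and both calls were kept with no expression minimum. The COBRA-like BC1, known from a brittle culm mutant and so tied to secondary walls, had at most 0.125 RPKM and was not tested.

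Among enzymes that supply UDP-glucose, some differed between the cold temperatures and others did not. UDP-glucose pyrophosphorylase (LOC_Os09g38030), which makes UDP-glucose from glucose phosphate, had 108 and 147 RPKM at 11 °C, 372 and 533 RPKM at 13 °C, and 25.9 and 51.3 RPKM at 25 °C. It was higher than at 25 °C at 11 °C (log2 difference 1.76, adjusted p = 0.00429) and at 13 °C (3.57, adjusted p = 0.000191). Sucrose synthase splits sucrose into fructose and UDP-glucose, and of 7 loci 4 were tested, 3 of them higher and 0 lower at 11 °C, and 2 higher and 0 lower at 13 °C, against 25 °C. Sucrose synthase 2 (LOC_Os06g09450) had 32.9 and 33.4 RPKM at 11 °C, 31.3 and 38.0 RPKM at 13 °C, and 17.9 and 23.4 RPKM at 25 °C, with no call at 11 against 13 °C (-0.06, adjusted p = 0.872). It is in both counts (adjusted p = 0.0397 and 0.0333), but of the 6 fits that leave out 1 library it kept these calls only without replicate 2 at 25 °C. The 2 higher at 13 °C became 1 without any 1 of the libraries at 11 or 13 °C. With only the 4 libraries compared, sucrose synthase 2 lost both calls (adjusted p = 0.0617 at 11 °C and 0.0557 at 13 °C). With no expression minimum it lost that at 11 °C (adjusted p = 0.0546). Sucrose synthase 6 (LOC_Os02g58480), called higher at 11 against 25 °C, was admitted through the cold libraries only. Sucrose synthase 4 (LOC_Os03g22120) had 78.1 and 124.5 RPKM at 11 °C, 8.93 and 13.7 RPKM at 13 °C, and 8.25 and 11.5 RPKM at 25 °C. Sucrose synthase 1 (LOC_Os03g28330) had 0.748 and 0.815 RPKM at 11 °C, 5.79 and 8.996 RPKM at 13 °C, and 0.106 and 0.524 RPKM at 25 °C, and was admitted through 13 °C only. The first of these 2 isoforms was thus the high one at 11 °C and the second at 13 °C (11 against 13 °C: 3.05, adjusted p = 0.0004, and -2.21, adjusted p = 0.000766).

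Of the loci known from brittle culm mutants or as partners, 5 of the 7 measured were tested. BC15, a chitinase-like protein (LOC_Os09g32080), had 12.7 and 17.2 RPKM at 11 °C, 17.0 and 20.2 RPKM at 13 °C, and 2.88 and 2.80 RPKM at 25 °C. BC14, a nucleotide sugar transporter (LOC_Os02g40030), had 51.2 and 57.1 RPKM at 11 °C, 25.8 and 30.9 RPKM at 13 °C, and 6.09 and 9.45 RPKM at 25 °C. These 2 were higher at both low temperatures, with log2 differences of 2.04 and 2.68 at 11 °C and of 2.35 and 1.76 at 13 °C (adjusted p = 0.00012 to 0.00101). The kinesin BC12 (LOC_Os09g02650) had 3.10 and 4.92 RPKM at 11 °C, 9.57 and 12.8 RPKM at 13 °C, and 6.76 and 7.58 RPKM at 25 °C. It was lower at 11 than at 13 °C (-1.29, adjusted p = 0.00931), a call lost without replicate 1 at 11 °C (adjusted p = 0.0645) or replicate 2 at 13 °C (adjusted p = 0.0703), and was not called against 25 °C. The dynamin BC3 and the KORRIGAN-type endoglucanase OsGLU1 were not called in any comparison, and BC10, with 0.404 to 1.31 RPKM, was not tested.

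Among 21 endoglucanase loci, enzymes that cut glucan chains, 13 were tested. At 13 against 25 °C, 7 were higher and 2 lower, at 11 against 25 °C 4 were higher and 1 lower, and at 11 against 13 °C 2 were higher and 6 lower. With no expression minimum the 4 became 2. The share higher at 11 against 25 °C is near that of all loci, and the 4 became 1 without replicate 2 at 11 °C; the 2 higher at 11 against 13 °C became 1 without replicate 2 at 11 °C or replicate 1 at 13 °C. Endoglucanase 12 (LOC_Os04g41970) had 0.366 and 0.310 RPKM at 11 °C, 6.93 and 8.25 RPKM at 13 °C, and 0.260 and 0.181 RPKM at 25 °C, and was called at 13 against 25 °C (2.81, adjusted p = 4.49e-05), also with no expression minimum; it was admitted through 13 °C only. Endoglucanase 20 (LOC_Os08g29780) was highest at 25 °C, with 10.7 and 9.58 RPKM at 11 °C, 13.7 and 17.3 RPKM at 13 °C, and 33.6 and 36.5 RPKM at 25 °C. Of 15 callose synthases, which make a glucan of another linkage, 10 were tested, and 2 were higher and 0 lower at 11 °C, and 5 higher and 1 lower at 13 °C, against 25 °C. With no expression minimum the 5 at 13 °C became 3 and the 2 at 11 °C became 1. The 5 became 0 when replicate 2 at 13 °C was left out and 1 when replicate 1 at 25 °C was, the 1 lower became 0 without any of the 4 libraries compared, and the 2 at 11 °C became 1 without replicate 2 at 11 °C or either library at 25 °C. The Arabidopsis KOBITO relative LOC_Os01g13200 was not called in any comparison, with 17.6 and 15.7 RPKM at 11 °C, 13.7 and 15.5 RPKM at 13 °C, and 16.7 and 18.4 RPKM at 25 °C.

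Cellulose synthase-like genes are relatives, some of which make other wall glycans. Of 11 loci 7 were tested, and 0 were higher and 2 lower at 11 °C, and 1 higher and 1 lower at 13 °C, against 25 °C, shares of a few loci that are no result beside those of all loci. The 1 higher at 13 °C became 2 without replicate 2 at 25 °C. Cellulose synthase-like protein E6 (LOC_Os09g30130) had 1.70 and 1.70 RPKM at 11 °C, 18.1 and 22.6 RPKM at 13 °C, and 4.11 and 4.60 RPKM at 25 °C. Its order of temperatures was that of CESA3, CESA6 and CESA8, with log2 differences of -0.99 at 11 °C (adjusted p = 0.0103) and 1.99 at 13 °C (adjusted p = 0.000454) against 25 °C. The first of these calls was lost without replicate 2 at 11 °C (adjusted p = 0.0546) or replicate 2 at 25 °C (adjusted p = 0.0527). Cellulose synthase-like protein H1 (LOC_Os10g20090) was lower at both, with 7.27 and 8.18 RPKM at 11 °C, 7.30 and 9.63 RPKM at 13 °C, and 26.9 and 30.7 RPKM at 25 °C (adjusted p = 0.000578 at 11 °C and 0.000939 at 13 °C). Mixed-linked glucan synthase 6 (LOC_Os08g06380), chosen after its values were seen, had 0.187 and 0.222 RPKM at 11 °C, 5.52 and 6.39 RPKM at 13 °C, and 1.61 and 1.47 RPKM at 25 °C. Of 51 loci that the table annotates with cellulose biosynthesis, 31 were tested. This set includes the 6 tested CESA genes, BC15 and cellulose synthase-like loci already counted above. It also holds loci described as protein glycosyltransferase subunits, glucosidase subunits and protein disulfide isomerases, so it is no separate count of cellulose synthesis genes. At 11 against 25 °C 12 were higher and 5 lower, beside 28.6% and 21.4% of all loci. At 13 against 25 °C 14 were higher and 2 lower, beside 26.3% and 17%. The 14 became 9 without replicate 2 at 13 °C, the 2 became 1 without replicate 1 at 13 °C or replicate 1 at 25 °C, and the 5 became 3 without replicate 2 at 11 °C or replicate 2 at 25 °C.

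**Figure D5:**
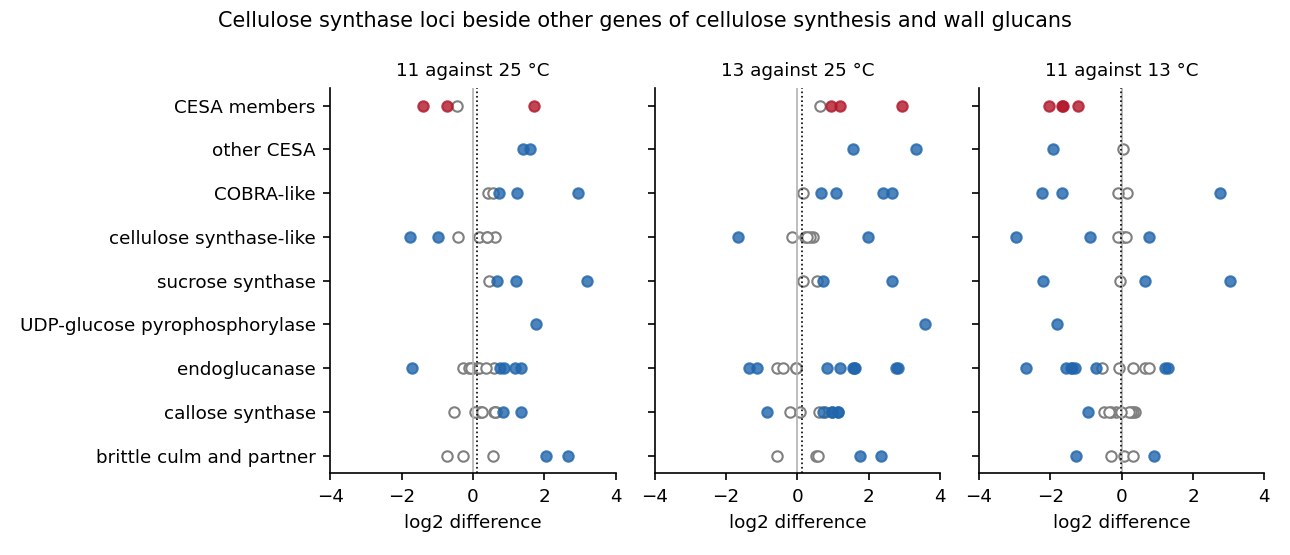
Log2 difference of RPKM + 1 (log2 units) for the tested loci of each list in the comparisons; filled points passed the adjusted p of 0.05 (red for the listed CESA genes, blue for other lists), open points did not, and the dotted line is the median of all tested loci. At 13 against 25 °C the listed CESA genes have a median of 1.07 and the COBRA-like genes one of 1.09.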

How the data were processed

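RNA of stems and leaves was sequenced in 6 libraries, 2 per temperature. Per the submitters' processing notes, TopHat2 2.0.12 was among the tools; the sources used here name no build, annotation, counter or strand setting. The authors' deposited table gives RPKM per locus. From it, log2(RPKM + 1) of the 19438 loci at RPKM of at least 1 in 2 or more libraries was fitted with limma 3.58.1 (R 4.3.3) with a mean per temperature, a mean-variance trend and Benjamini-Hochberg adjustment over all tested loci. Library totals and counted gene lengths were recovered because RPKM of whole reads falls on fixed steps: 99.99% of 19429 tested loci gave whole reads within 0.02. Intervals on reads are exact Poisson, 95%. The limma step was tested on simulated data. Where the labels do not say that replicates came from separate plantings, p-values measure the spread between these libraries. All listed CESA loci, the 4 other CESA loci and the brittle culm loci were to be named whatever their values. From each description list up to 3 called loci with the largest difference were to be named, and per CESA gene the described loci nearest in profile. Members and lists were chosen with earlier results of these data known; the annotation list of cellulose biosynthesis was chosen after seeing the table. OsMYB103L, OsLsi2 and OSH1 were not analysed here. Alternatives were a pseudocount of 0.1, no expression minimum, quantile and median-ratio scaling, a replicate term, no trend, only the libraries compared, and leaving out each library.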

Additional observations from a re-analysis of the deposited data

How the results depend on the processing

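Over the 4 tested CESA genes, 3 comparisons and 13 alternatives, 139 of 156 values kept their direction and side of the threshold, 13 lost a call, 4 gained one and 0 reversed. The number of these genes called lower at 11 against 25 °C, 2 as reported, was 1 with no expression minimum, 1 with only the 4 libraries compared, and 1 to 1 when each library was left out; the gene lost was CESA3. Of CESA2, 2 values reversed, both at 11 against 13 °C, where it had not been called: -0.19 with replicate 2 at 11 °C left out and -0.17 with replicate 1 at 13 °C left out, within -0.19 to 0.25 over single libraries left out. For other named loci, 818 of 910 called values kept their call, 92 lost it and 0 reversed.

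The labels give groups the same replicate numbers without saying what a number shares. Deviations of same-numbered libraries correlated over genes with r of 0.713, 0.61 and 0.669 (genes are not independent replicates). With the replicate number as a block, 3 of the CESA genes were lower at 11 against 25 °C (CESA6 passing, adjusted p = 0.0301) and 4 higher at 13 against 25 °C (CESA8 passing, adjusted p = 0.0193), and calls over all loci at 11 against 13 °C became 11351. The reported number was 3351 higher and 3533 lower, and without 1 library of the compared ones it was 4109 to 4659 in all.

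Quantile normalization moved the median of all loci by -0.16 at 11 °C and -0.15 at 13 °C against 25 °C, and split the calls at 13 °C into 4895 higher and 4921 lower, beside 5115 and 3299. The cause of these changes was not tested. With 2 libraries per group and under 20 reads on each secondary wall gene, small differences there were not detectable.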
